A study of Rattus norvegicus with 20 samples.

Results

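The antioxidant response was followed in experimental reflux oesophagitis in rats through 10 genes: Nfe2l2, which encodes the transcription factor Nrf2, and Hmox1, Nqo1, Sod2, Txnrd1, Gclc, Gclm, Gpx2, Srxn1 and Slc7a11. They were taken by name, as the array features annotated with these 10 symbols. The list was drawn up with earlier results of these data known. Features for all 10 were on the array (13 probes). Of the 13597 genes whose signal was high enough to be tested, 9 were these genes. Gclm was the exception, because its single probe rose well above background on 1 of 20 arrays, with signals of 2.74 to 8.81 units, so its level and its changes are not reported.

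Nrf2 is held in the cytoplasm and marked for destruction by the sensor protein Keap1, which joins it to a Cul3 ubiquitin ligase. When oxidants or electrophiles modify Keap1, Nrf2 accumulates, enters the nucleus, pairs with small Maf proteins and binds antioxidant response elements near genes for glutathione synthesis, thioredoxin recycling, quinone reduction and haem breakdown. Much of this control acts on the Nrf2 protein, so the Nfe2l2 transcript alone does not report it, and in the squamous lining of the oesophagus the pathway is also linked to keratinisation.

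Oesophageal tissue of Wistar rats was profiled on one-colour microarrays, 4 per group. The rats given 2 ml/kg STW5 (STW5 high) and those given 0.5 ml/kg STW5 (STW5 low), a herbal preparation for functional gastrointestinal complaints, and those given 30 mg/kg omeprazole, a proton pump inhibitor, were dosed for 7 days before an operation that induces reflux and for 10 days after it. Untreated rats had the same operation without a drug, and sham rats had a sham operation. All groups are whole tissue of the same strain, so each value averages epithelium, muscle and infiltrating cells, and fewer cells of a type and less RNA per cell cannot be told apart.

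Several facts about the arrays bear on every comparison. The share of features well above background was 61.5 to 70.5% per array. Replicates 1 and 2 of STW5 low were nearly identical, with a spread between them 1.14 times that between spots of a single array. Other pairs within a group had at least 2.61 times, so these replicates were averaged and counted as 1 sample, which left 19 samples. Across groups the closest pair was sham replicate 2 and omeprazole replicate 2, at 2.10 times. The sham arrays lay on slide 1, untreated and STW5 low on slide 2, and STW5 high and omeprazole on slide 3, so in comparisons across slides an effect of slide and one of treatment cannot be told apart. In the deposited value table all 8 STW5 columns equal the scanner files of the other dose, and which dose each file belongs to is not settled. The STW5 high and STW5 low groups below are those of the labels on the scanner files. Sham replicate 2 carried raised neutrophil markers (a mean of 0.87 on the centred log2 scale, against -3.39 to -2.75 in the other sham arrays). Without it, every member kept its call and its direction in untreated against sham.

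The promoters of these genes were read for antioxidant response elements. RefSeq (assembly GRCr8) gave a promoter for 9 of the 10 members. The 250 bases before the annotated start are shown 5′ to 3′ on the gene's strand for 4 of these members that were called in a comparison, and capitals mark matches to TGACNNNGC, the core of an antioxidant response element, to TGAGNNNGC, a variant of it, or to TGAGTCA, an AP-1 site, on either strand. No 2 marked matches share bases.
Sod2, chr1:50050169-50050418, minus strand: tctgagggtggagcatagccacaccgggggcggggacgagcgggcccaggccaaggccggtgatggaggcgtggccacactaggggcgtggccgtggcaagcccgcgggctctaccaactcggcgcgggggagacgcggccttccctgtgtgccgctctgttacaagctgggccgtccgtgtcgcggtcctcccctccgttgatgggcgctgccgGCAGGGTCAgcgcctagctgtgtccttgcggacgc
Txnrd1, chr7:22755905-22756154, minus strand: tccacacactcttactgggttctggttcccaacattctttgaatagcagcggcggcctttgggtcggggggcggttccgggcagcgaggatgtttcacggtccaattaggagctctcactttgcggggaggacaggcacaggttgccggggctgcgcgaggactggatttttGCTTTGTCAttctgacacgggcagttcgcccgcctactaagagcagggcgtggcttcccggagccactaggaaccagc
Nqo1, chr19:52220268-52220517, minus strand: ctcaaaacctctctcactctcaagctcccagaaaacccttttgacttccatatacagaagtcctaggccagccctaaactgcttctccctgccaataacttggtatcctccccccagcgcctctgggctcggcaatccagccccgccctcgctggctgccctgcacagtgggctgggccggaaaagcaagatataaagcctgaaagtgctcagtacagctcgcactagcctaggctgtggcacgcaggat
Srxn1, chr3:161064562-161064811, plus strand: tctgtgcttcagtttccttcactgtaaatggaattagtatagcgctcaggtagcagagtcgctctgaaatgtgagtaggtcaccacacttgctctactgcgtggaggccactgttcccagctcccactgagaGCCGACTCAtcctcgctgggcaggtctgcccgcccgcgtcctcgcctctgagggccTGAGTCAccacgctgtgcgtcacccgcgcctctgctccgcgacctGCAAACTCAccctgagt

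TGACNNNGC occurred in this window in 4 of the 9 members with a promoter (Sod2, Txnrd1 at 1 of its 2 annotated starts, Gpx2 and Gclm), and in 10.1% of 33469 rat promoters. Srxn1 carried TGAGNNNGC, found in 14.2% of all promoters, and TGAGTCA, found in 4.05%. The Sod2 match read TGACCCTGC on the strand opposite to the gene, 35 bases before the start, and the Txnrd1 match read TGACAAAGC, 78 bases before it. Gclc, Nfe2l2, Nqo1 and Slc7a11 held none of the 3 motifs in these 250 bases. For Gclc, Nfe2l2, Slc7a11 and Txnrd1 these bases lie partly or wholly within the annotated span of the gene, since the start used lies inside it. A match is a string of letters and was not tested for binding, and elements farther from the start lie outside the window.

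What the array measured for the regulator and for the most described pair of its targets is shown by their probes, which are copied from the array files with rn4 coordinates. All 3 lie in coding sequence near the end of the reading frame, and the capitals in the Nfe2l2 probe are its stop codon.
Nfe2l2, chr3:58367137-58367196, minus strand: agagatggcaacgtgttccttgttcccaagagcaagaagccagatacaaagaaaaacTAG
Hmox1, chr19:13969336-13969395, plus strand: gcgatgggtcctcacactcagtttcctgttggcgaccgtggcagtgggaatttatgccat
Nqo1, chr19:37251727-37251786, minus strand: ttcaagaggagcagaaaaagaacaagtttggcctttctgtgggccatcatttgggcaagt

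Levels below are log2 signals minus the log2 of the 75th percentile of the same array, so that 0 is the signal at that percentile, and levels of different genes are not compared. Changes are differences of group means of these levels ± SE from limma, fitted to all 5 groups at once, and a gene was called at a Benjamini-Hochberg adjusted p under 0.05 over all 13597 genes.

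The members did not move as a block after surgery. In untreated against sham tissue Hmox1, Sod2 and Txnrd1 rose, by 3.03-fold, 2.75-fold and 2.75-fold, Gclc fell to 0.690 of its sham level, and the other 5 tested members did not pass. That made 4 of 9 members called, 3 higher and 1 lower, against 32.9% of all genes (15% higher and 17.9% lower). In each drug group Hmox1 and Sod2 were lower than in untreated tissue, and Txnrd1 was lower in STW5 high and STW5 low. Nqo1 and Gclc were higher than in untreated tissue in STW5 low and omeprazole. In no drug group did any of the 9 members pass the test against sham. Of all genes, 8.55% passed that test in STW5 high, 0.00735% in STW5 low and 1.57% in omeprazole.

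**Figure D1:**
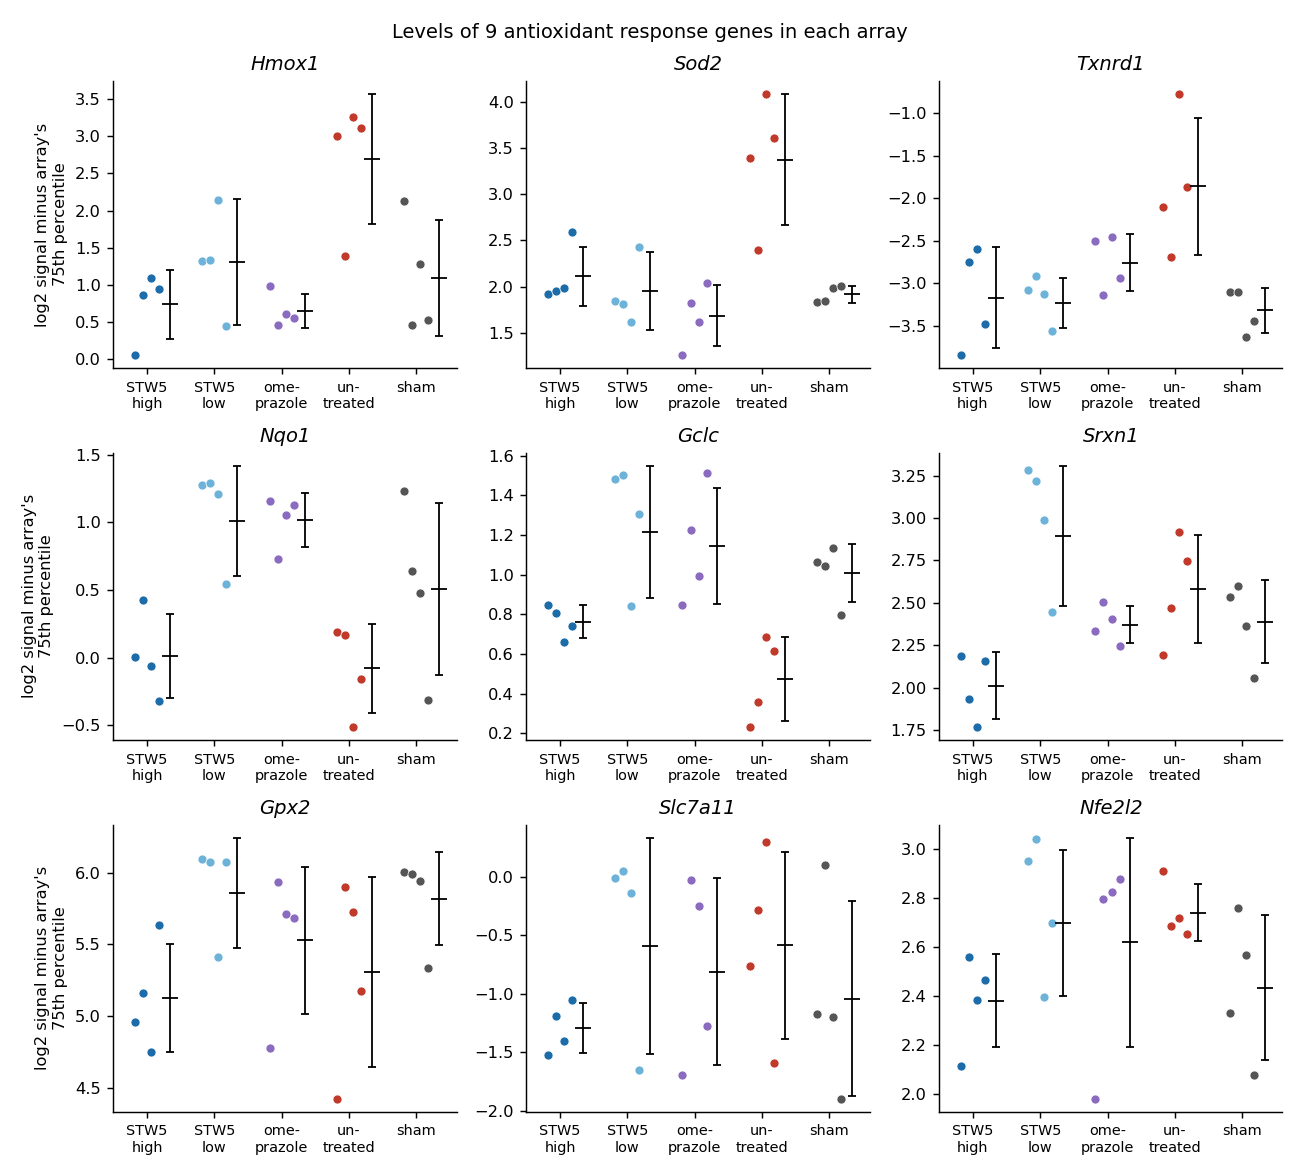
Level of each of the 9 tested genes in each array (points, 4 per group), as log2 signal minus the 75th percentile of the array, for STW5 high, STW5 low, omeprazole, untreated and sham, each panel with its own axis. The black bar beside the points is the group mean ± SD (n = 4 samples, or 3 for STW5 low, whose replicates 1 and 2 count as 1). Untreated tissue has the highest mean for Hmox1, Sod2 and Txnrd1 and the lowest for Nqo1 and Gclc.

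Nfe2l2, the gene of the regulator itself, was called in none of the 9 comparisons made with limma, in which the smallest adjusted p was 0.262. Its level was 2.12 to 2.56 in STW5 high, 2.40 to 2.99 in STW5 low, 1.98 to 2.87 in omeprazole, 2.65 to 2.91 in untreated and 2.08 to 2.76 in sham samples. The ranges of neighbouring groups in the order of means overlapped throughout. The change was 0.31 ± 0.20 in untreated minus sham (adjusted p = 0.267) and -0.36 ± 0.20 in STW5 high minus untreated (adjusted p = 0.262), where the untreated arrays all lay above the STW5 high ones. One omeprazole array, replicate 1, stood at 1.98, far below the other 3.

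Hmox1 encodes haem oxygenase 1, which breaks haem into biliverdin, carbon monoxide and iron. Its level was 0.05, 0.86, 1.09 and 0.94 in STW5 high, 1.32, 1.33, 2.14 and 0.45 in STW5 low, 0.98, 0.45, 0.60 and 0.55 in omeprazole, 3.01, 1.39, 3.26 and 3.12 in untreated and 2.12, 0.45, 1.28 and 0.52 in sham arrays. Untreated replicates 1, 3 and 4 were above every array of the other groups, whereas untreated replicate 2 lay within the range of sham and of STW5 low. Hmox1 was 1.60 ± 0.45 higher in untreated than in sham tissue (log2, limma adjusted p = 0.0118).

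Against untreated tissue Hmox1 was lower by log2 -1.96 ± 0.45 in STW5 high (adjusted p = 0.0133), -1.39 ± 0.48 in STW5 low (adjusted p = 0.0317) and -2.05 ± 0.45 in omeprazole (adjusted p = 0.0035). The STW5 high and omeprazole arrays did not overlap the untreated ones, and the STW5 low arrays did. The call in STW5 low was lost without any of untreated replicates 1, 3 or 4, without the averaged STW5 low replicates 1 and 2 (-1.40, adjusted p = 0.0762), and without STW5 low replicate 4 (-0.96, adjusted p = 0.152). In STW5 high the call was lost without replicate 1 of that group (-1.73, adjusted p = 0.0582).

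Sod2, the manganese superoxide dismutase of mitochondria, turns superoxide into hydrogen peroxide. Its level was 1.92, 1.95, 1.99 and 2.59 in STW5 high, 1.84, 1.81, 1.62 and 2.43 in STW5 low, 1.26, 1.82, 1.62 and 2.04 in omeprazole, 3.4, 2.40, 4.09 and 3.61 in untreated and 1.84, 1.84, 1.99 and 2.00 in sham arrays. All untreated arrays were above all sham and omeprazole arrays, and untreated replicate 2, the lowest, was below the highest array of each STW5 group. The sham arrays were close together, with an SD of 0.09.

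Sod2 was 1.46 ± 0.29 higher in untreated than in sham tissue (adjusted p = 0.0015). It was lower than in untreated tissue by log2 -1.26 ± 0.29 in STW5 high (adjusted p = 0.0136), -1.42 ± 0.31 in STW5 low (adjusted p = 0.0023) and -1.69 ± 0.29 in omeprazole (adjusted p = 0.0007). Of these calls, the one in STW5 high was lost without replicate 1 of that group (adjusted p = 0.0521).

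Txnrd1, the cytosolic thioredoxin reductase that restores reduced thioredoxin with NADPH, gave a dim signal on this array (49.4 to 500.3 units). Its level was -3.84, -2.75, -2.60 and -3.48 in STW5 high, -3.08, -2.91, -3.13 and -3.56 in STW5 low, -2.50, -3.14, -2.45 and -2.94 in omeprazole, -2.10, -2.69, -0.77 and -1.87 in untreated and -3.10, -3.10, -3.63 and -3.45 in sham arrays. Every untreated array was above every sham and STW5 low array, and untreated replicate 3 stood highest. The probe behind these values has an annotated rn4 span shorter than its 60 bases, while the span of the gene's second probe equals its length.

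Txnrd1 was 1.46 ± 0.34 higher in untreated than in sham tissue (adjusted p = 0.0046), and a second probe of the gene gave 1.04 ± 0.28 (adjusted p = 0.0104). It was lower than in untreated tissue by log2 -1.37 ± 0.37 in STW5 low (adjusted p = 0.0089) and -1.31 ± 0.34 in STW5 high (adjusted p = 0.0263), and the difference of -0.90 ± 0.34 in omeprazole did not pass (adjusted p = 0.0605). The second probe did not pass in STW5 high (-0.82, adjusted p = 0.0748), nor did the first without untreated replicate 3 (-0.94), STW5 high replicate 1 (-1.08) or STW5 high replicate 4 (-1.20). The omeprazole difference passed with quantile normalization (-1.06, adjusted p = 0.0221), with the deposited value table (-1.01, adjusted p = 0.0342), with normexp background correction (-0.72, adjusted p = 0.0317) and without untreated replicate 2 (-1.18, adjusted p = 0.0146), while the second probe gave -0.51 (adjusted p = 0.196).

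Srxn1 encodes sulfiredoxin, which repairs over-oxidised peroxiredoxins. Its level was 2.19, 1.93, 1.77 and 2.16 in STW5 high, 3.28, 3.22, 2.99 and 2.44 in STW5 low, 2.24 to 2.50 in omeprazole, 2.19 to 2.92 in untreated and 2.06 to 2.60 in sham arrays. All STW5 high arrays lay below all STW5 low, omeprazole and untreated arrays, by little in the last case. The change in untreated minus sham was 0.19 ± 0.19 (adjusted p = 0.478), and the difference of -0.57 ± 0.19 in STW5 high minus untreated did not pass (adjusted p = 0.0682). It passed with quantile normalization (-0.58, adjusted p = 0.0474), with normexp (-0.58, adjusted p = 0.0404) and without untreated replicate 1 (-0.70, adjusted p = 0.0456).

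Gclc is the catalytic subunit of glutamate-cysteine ligase, which makes the first and rate-limiting step of glutathione synthesis. Its level was 0.85, 0.81, 0.66 and 0.74 in STW5 high, 1.48, 1.5, 0.84 and 1.31 in STW5 low, 0.85, 1.23, 0.99 and 1.51 in omeprazole, 0.23, 0.36, 0.68 and 0.62 in untreated and 1.07, 1.04, 1.14 and 0.80 in sham arrays. The untreated arrays were below all sham, STW5 low and omeprazole arrays, and untreated replicate 3 lay within the range of STW5 high.

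Gclc was lower by log2 -0.54 ± 0.17 in untreated than in sham tissue (adjusted p = 0.0226), a call that was lost without sham replicate 1 or 3 or untreated replicate 1 or 2 (adjusted p = 0.0503 to 0.0718 over these). Against untreated tissue it was higher by 0.74 ± 0.18 in STW5 low (adjusted p = 0.0049) and 0.67 ± 0.17 in omeprazole (adjusted p = 0.0083), the last not called with the deposited value table (0.56, adjusted p = 0.0546). In STW5 high the difference was 0.29 ± 0.17 and did not pass (adjusted p = 0.274).

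Nqo1, NAD(P)H quinone dehydrogenase 1, reduces quinones in a single step that avoids radical intermediates. Its level was 0.003, 0.42, -0.06 and -0.32 in STW5 high, 1.27, 1.29, 1.21 and 0.54 in STW5 low, 1.16, 0.73, 1.05 and 1.13 in omeprazole, 0.19, 0.16, -0.51 and -0.16 in untreated and 1.23, 0.64, 0.48 and -0.31 in sham arrays. The STW5 low and omeprazole arrays all lay above the untreated and STW5 high arrays, while sham arrays spanned both ranges.

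Nqo1 was 2.13-fold higher in STW5 low than in untreated tissue (log2 1.09 ± 0.30, adjusted p = 0.009) and 2.14-fold higher in omeprazole (log2 1.10 ± 0.28, adjusted p = 0.008), and it differed by 0.09 ± 0.28 in STW5 high (adjusted p = 0.854). Untreated minus sham was -0.59 ± 0.28 (adjusted p = 0.109). Without sham replicate 4, the lowest sham array, that difference passed (-0.86, adjusted p = 0.0148), as it did with the deposited value table (-0.68, adjusted p = 0.0496). Sham replicate 4 carried raised stomach and glandular epithelium markers. Their mean was 2.91 on the centred log2 scale, against -1.29 to 0.40 in the other sham arrays.

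Gpx2, a selenium-dependent glutathione peroxidase of epithelia, and Slc7a11, the cystine importer of system xc-, were called in none of the 9 comparisons. The level of Gpx2 was 4.75 to 5.64 in STW5 high, 5.41 to 6.09 in STW5 low, 4.78 to 5.94 in omeprazole, 4.42 to 5.90 in untreated and 5.33 to 6.01 in sham samples, with all groups overlapping their neighbours. Its change was -0.51 ± 0.32 in untreated minus sham (adjusted p = 0.235), and its second probe gave -0.51 ± 0.33 as well.

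The level of Slc7a11 was -1.52 to -1.05 in STW5 high, -1.65 to 0.02 in STW5 low, -1.69 to -0.03 in omeprazole, -1.59 to 0.29 in untreated and -1.90 to 0.10 in sham samples. Arrays of each group except STW5 high were spread over more than log2 1, and the SE of 0.49 in untreated minus sham was the largest among the members. Slc3a2, the heavy chain that brings Slc7a11 to the membrane, did rise in untreated against sham tissue (0.84 ± 0.22, adjusted p = 0.0094), and it fell in STW5 low (-0.89 ± 0.24, adjusted p = 0.009) and STW5 high (-0.92 ± 0.22, adjusted p = 0.0185) against untreated tissue. In omeprazole minus untreated it was -0.54 ± 0.22 and did not pass (adjusted p = 0.0834).

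**Figure D2:**
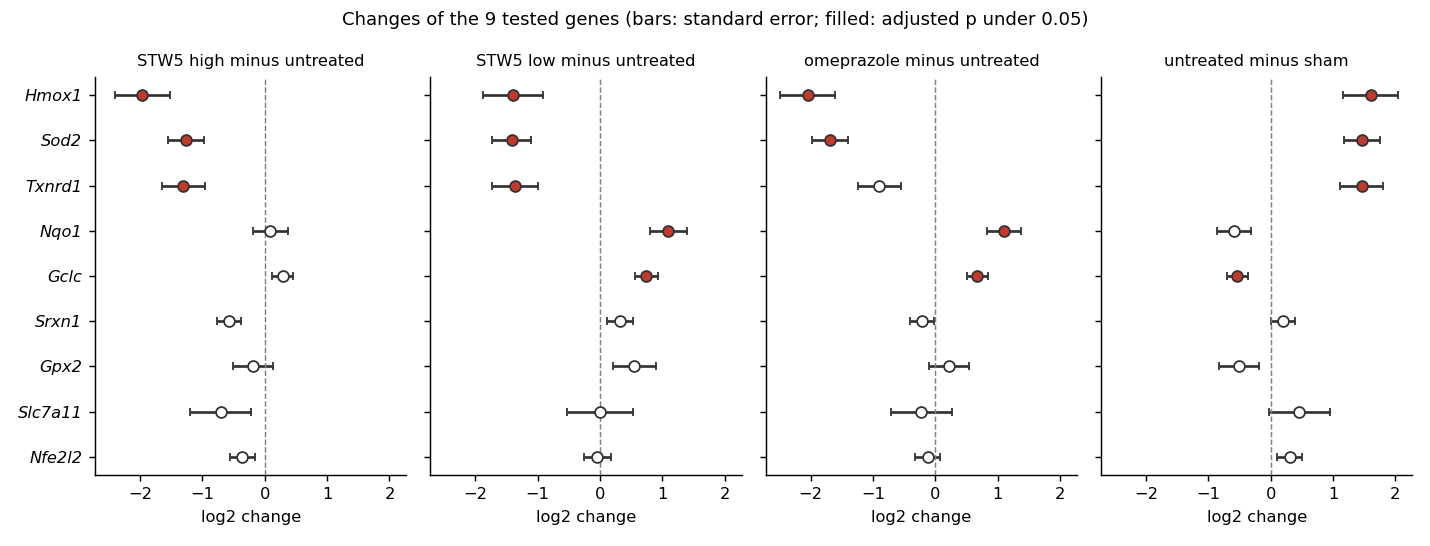
Log2 change (points) with its standard error (bars) for each of the 9 tested genes in STW5 high, STW5 low and omeprazole minus untreated and in untreated minus sham, with filled points at an adjusted p under 0.05. Hmox1, Sod2 and Txnrd1 lie left of 0 in all 3 drug panels and right of it in untreated minus sham, and Nqo1 and Gclc lie right of 0 in STW5 low and omeprazole.

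Counted by comparison, 5 of 9 members were called in STW5 low minus untreated, 2 higher and 3 lower, against 37.6% of all genes (21.7% higher and 15.9% lower). In omeprazole minus untreated it was 4 of 9, 2 higher and 2 lower, against 27.7% of all genes (15.6% higher and 12.2% lower). In STW5 high minus untreated 3 of 9 were called, all lower, against 9.49% of all genes (5.13% higher and 4.37% lower). Without STW5 high replicate 1 it was 0 of 9, and the count over all 13597 genes fell as well, from 1291 to 414. All 3 comparisons and untreated minus sham share the 4 untreated arrays, so their mirrored signs are not independent observations. STW5 low lay on the slide of the untreated arrays. Its values with the slide as a block were those given, which was fixed in advance because each group lay on a single slide. That fit is therefore no check of these values.

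Against sham, 0 of 9 members were called by limma in each drug group. The background was 8.55% of genes in STW5 high minus sham, 0.00735% (1 gene) in STW5 low minus sham and 1.57% in omeprazole minus sham. At an unadjusted p under 0.05 there was 1 member in STW5 high (Gpx2, -0.69 ± 0.32), 1 in STW5 low (Srxn1, 0.51 ± 0.21) and 0 in omeprazole, against 26.8% of all genes in STW5 high, 7.96% in STW5 low and 10.9% in omeprazole. For Hmox1 the difference from sham was -0.36 ± 0.45 in STW5 high, 0.21 ± 0.48 in STW5 low and -0.45 ± 0.45 in omeprazole, so differences of log2 1 in single members could be missed at these sizes.

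Between the doses, Nqo1 and Srxn1 were lower in STW5 high than in STW5 low, by log2 -0.999 ± 0.30 (adjusted p = 0.024) and -0.88 ± 0.21 (adjusted p = 0.0086), and their arrays did not overlap. These were 2 of 9 members, both lower, against 23.9% of all genes called (13.2% lower) and 20.9% of all genes lower with no overlap. The 2 groups lay on different slides, which cannot be told apart from dose. Replicates with the same number deviated together in this comparison, and with the replicate number as a block, in a fit of all 20 arrays, Gclc passed as well (-0.52, adjusted p = 0.0324), while the count over all genes was 4986 in place of 3252. All 20 arrays without the block gave nearly the same (Gclc adjusted p = 0.0241, 4728 genes), so these shifts came with counting STW5 low replicates 1 and 2 as separate samples. Without the averaged STW5 low replicates 1 and 2 neither was called (Nqo1 -0.86, adjusted p = 0.115, and Srxn1 -0.71, adjusted p = 0.0637), and Nqo1 was also lost without STW5 low replicate 3 (-0.90), STW5 high replicate 3 (-0.97) or STW5 high replicate 4 (-0.89). With the dose labels of the deposited value table both signs turn, to 1.13 for Nqo1 and 1.01 for Srxn1.

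STW5 high and omeprazole shared a slide, and 0 of 9 members were called between them by limma, against 0.221% of all genes, with 2 members at an unadjusted p under 0.05, against 17.9% of all genes. Nqo1 differed most, at -1.01 ± 0.28 without overlap of arrays (adjusted p = 0.133), and Gclc differed by -0.38 ± 0.17 (adjusted p = 0.256). With only these 2 groups in the fit 1 of 9 members was called, and so were 1173 of all 13597 genes.

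Around the 10 members, 94 other genes of the antioxidant system were taken in 7 lists, 87 of them measured. In untreated minus sham 15 of the 87 were higher and 16 lower, 35.6% in all, near the 32.9% of all genes, with a median change of -0.13 (-0.08 for all genes). Against untreated tissue, 22 were higher and 19 lower in STW5 low (47.1%, against 37.6% of all genes), 16 higher and 13 lower in omeprazole (33.3%, against 27.7%), and 2 higher and 14 lower in STW5 high (18.4%, against 9.49%). In STW5 low minus sham limma called 0 of the 87, against 0.00735% of all genes. At an unadjusted p under 0.05 there were 9, against 7.96% of all genes.

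**Figure D3:**
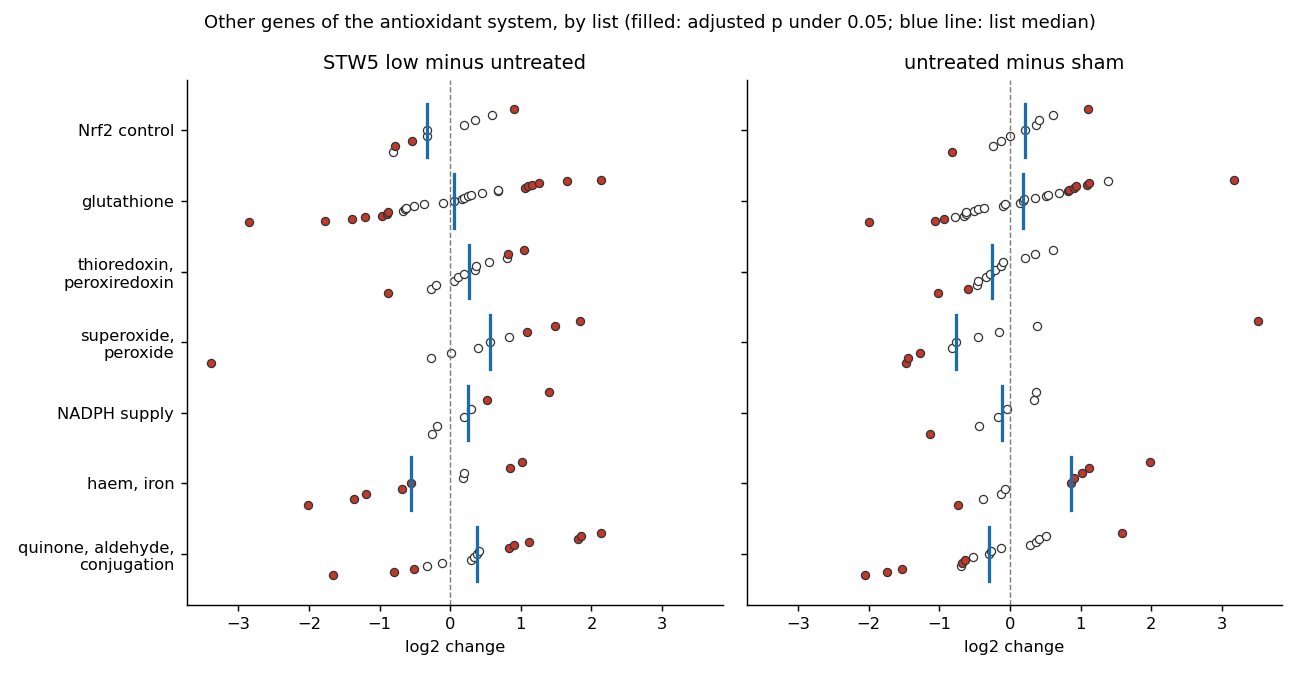
Log2 change of each measured gene of the 7 lists (points, filled at an adjusted p under 0.05) in STW5 low minus untreated and in untreated minus sham, with a blue line at each list's median. Lists hold genes on both sides of 0, and the haem and iron list has its median at -0.55 in STW5 low minus untreated and at 0.86 in untreated minus sham.

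The haem and iron list stands beside Hmox1. It had 5 of 9 measured genes higher and 1 lower in untreated minus sham (66.7%, against 32.9% of all genes). Its median was 0.86. Both ferritin chains, which store the iron that haem breakdown releases, were among the 5: Ftl1 rose by 0.90 ± 0.15 (adjusted p = 0.000539) and Fth1 by 0.86 ± 0.16 (adjusted p = 0.0012). Ftl1 was 7.75 to 8.33 in untreated and 6.95 to 7.16 in sham arrays, with no overlap.

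Ftl1 was lower than in untreated tissue in STW5 high (-0.69 ± 0.15, adjusted p = 0.0112), STW5 low (-0.69 ± 0.16, adjusted p = 0.0037) and omeprazole (-0.96 ± 0.15, adjusted p = 0.000416). Fth1 was lower as well, by -0.89 ± 0.16 in STW5 high, -0.55 ± 0.18 in STW5 low and -1.21 ± 0.16 in omeprazole, and the omeprazole arrays (6.62 to 6.89) were below every sham array (6.95 to 7.21).

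Among genes that control Nrf2, 1 of 9 was higher and 1 lower in untreated minus sham (22.2%, against 32.9% of all genes). Bach1, a repressor that competes with Nrf2 at haem-responsive elements including those of Hmox1, rose by 1.11 ± 0.25 (adjusted p = 0.0031), and Cul3 fell, by -0.82 ± 0.14 (adjusted p = 0.000604). Against untreated tissue Bach1 was lower in STW5 high (-0.93 ± 0.25), STW5 low (-0.78 ± 0.27) and omeprazole (-1.67 ± 0.25). Its signal was dim, at -4.11 to -3.16 in untreated and -5.52 to -4.78 in omeprazole arrays. Omeprazole replicate 1 (-5.52) was close to the lowest signal well above background on that array (-5.59), so the size of the omeprazole change is uncertain. Cul3 was higher in STW5 low (0.90 ± 0.15) and omeprazole (0.80 ± 0.14), and its difference of 0.36 ± 0.14 in STW5 high did not pass (adjusted p = 0.107). Keap1 was called in none of these 4 comparisons (-0.24 ± 0.41 in untreated minus sham).

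Of superoxide and peroxide enzymes outside the members, 1 of 9 rose and 3 fell in untreated minus sham (44.4%, against 32.9% of all genes). The one that rose was Cybb, the catalytic subunit of the phagocyte NADPH oxidase, by 3.51 ± 0.51 (adjusted p = 0.000277), at -2.35 to -0.25 in untreated and -5.98 to -3.79 in sham arrays, with 3 of the sham arrays well above background. Catalase (Cat), which removes hydrogen peroxide, fell by 1.27 on the log2 scale (SE 0.21, adjusted p = 0.000503), at -2.53 to -1.38 in untreated and -0.89 to -0.45 in sham arrays.

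Nox1, the NADPH oxidase of epithelia and smooth muscle, was also lower in untreated than in sham tissue (-1.45 ± 0.29, adjusted p = 0.0015). In STW5 low minus untreated Cybb was lower (-3.38 ± 0.55) and Cat (1.49 ± 0.23) and Nox1 (1.83 ± 0.31) were higher, each with an adjusted p of 0.000456 or less. In STW5 high minus untreated Cybb was lower (-1.75 ± 0.51, adjusted p = 0.0421), and Cat (0.65 ± 0.21, adjusted p = 0.0594) and Nox1 (0.76 ± 0.29, adjusted p = 0.0964) did not pass. In omeprazole minus untreated Cybb was lower (-3.03 ± 0.51) and Cat (1.03 ± 0.21) and Nox1 (1.25 ± 0.29) were higher, each with an adjusted p of 0.0048 or less.

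Of 27 glutathione genes, 7 rose and 3 fell in untreated minus sham (37.0%, against 32.9% of all genes). Glutathione synthetase (Gss), which makes the step after Gclc, rose by 0.91 ± 0.22 (adjusted p = 0.0055) while Gclc fell, and glutathione reductase (Gsr) rose by 0.94 ± 0.23 (adjusted p = 0.0058); both were named after their values were seen. Gpx7, a peroxidase of the endoplasmic reticulum, rose by 1.09 ± 0.30 and was lower than in untreated tissue in STW5 low by -1.78 ± 0.33 (adjusted p = 0.000709), the smallest p of the list there. It was also lower in omeprazole (-0.90 ± 0.30, adjusted p = 0.0343), and its difference of -0.46 ± 0.30 in STW5 high did not pass (adjusted p = 0.331).

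For NADPH supply 1 of 6 genes was called in untreated minus sham (16.7%, against 32.9% of all genes). It was cytosolic malic enzyme (Me1), lower by -1.14 ± 0.20 (adjusted p = 0.000795). Me1 was higher than in untreated tissue in STW5 low (1.40 ± 0.22, adjusted p = 0.000329) and omeprazole (0.74 ± 0.20, adjusted p = 0.0126), and it did not pass in STW5 high (0.44 ± 0.20, adjusted p = 0.166). Of 15 quinone, aldehyde and conjugation enzymes 1 rose and 5 fell in untreated minus sham (40.0%, against 32.9% of all genes). The one that rose was Akr1b8, an aldo-keto reductase, by 1.59 ± 0.29 (adjusted p = 0.000844), and it was lower than in untreated tissue in STW5 high (-1.94 ± 0.29), STW5 low (-1.66 ± 0.31) and omeprazole (-1.10 ± 0.29), opposite in direction to Nqo1 in the last 2 groups.

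In the thioredoxin and peroxiredoxin list, 0 of 12 genes rose and 2 fell in untreated minus sham by limma. That was 16.7%, against 32.9% of all genes. Txnip, whose protein binds and inhibits thioredoxin, was called in STW5 high (4.22 ± 0.30) and omeprazole (3.82 ± 0.30) minus untreated. Its level was -1.04 to -0.55 in STW5 high and -1.59 to -0.86 in omeprazole arrays, all on slide 3, against -5.99 to -4.66 in untreated and -5.35 to -4.18 in sham arrays. STW5 low, on slide 2, lay at -5.70 to -4.99, so slide 3 and these 2 drug groups cannot be told apart for this gene. Its probe was well above background on all 4 arrays of both slide 3 groups, but on 2 of the 4 STW5 low, 3 of the 4 untreated and 3 of the 4 sham arrays, so the sizes of these changes are uncertain. Prdx5, a peroxiredoxin, was lower in STW5 high than in untreated tissue (-1.03 ± 0.24, adjusted p = 0.0143) and in omeprazole (-0.75 ± 0.24, adjusted p = 0.0267), and its difference of -0.21 ± 0.26 in STW5 low did not pass.

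Markers of several cell types moved in the same comparisons. All 8 macrophage and monocyte markers and 6 of 7 measured neutrophil markers rose in untreated minus sham, and 6 of 9 squamous epithelium markers and 5 of 8 skeletal muscle markers fell (15% of all genes rose and 17.9% fell). Of the fibroblast and endothelium markers 2 of 7 rose. Against untreated tissue the macrophage markers fell 8 of 8 in STW5 low and in omeprazole and 2 of 8 in STW5 high. The shares of all genes that fell were 15.9% in STW5 low, 12.2% in omeprazole and 4.37% in STW5 high. Of 7 fibroblast and endothelium markers 0 were lower in STW5 high, 5 in STW5 low (median -1.35) and 2 in omeprazole. Squamous markers rose 0 of 9 in STW5 high (median 0.35) and 7 of 9 in STW5 low and in omeprazole, and skeletal muscle markers rose 3, 5 and 4 of 8 in STW5 high, STW5 low and omeprazole. The shares of all genes that rose were 5.13% in STW5 high, 21.7% in STW5 low and 15.6% in omeprazole, and 0 of 9 is near the first of these. Of the marker lists, Ngp of the neutrophil list and Krt10 of the squamous list were not high enough to test, as were Atp4b and Muc5ac of the stomach list, of which 0 of 8 measured genes were called by limma in untreated minus sham.

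**Figure D4:**
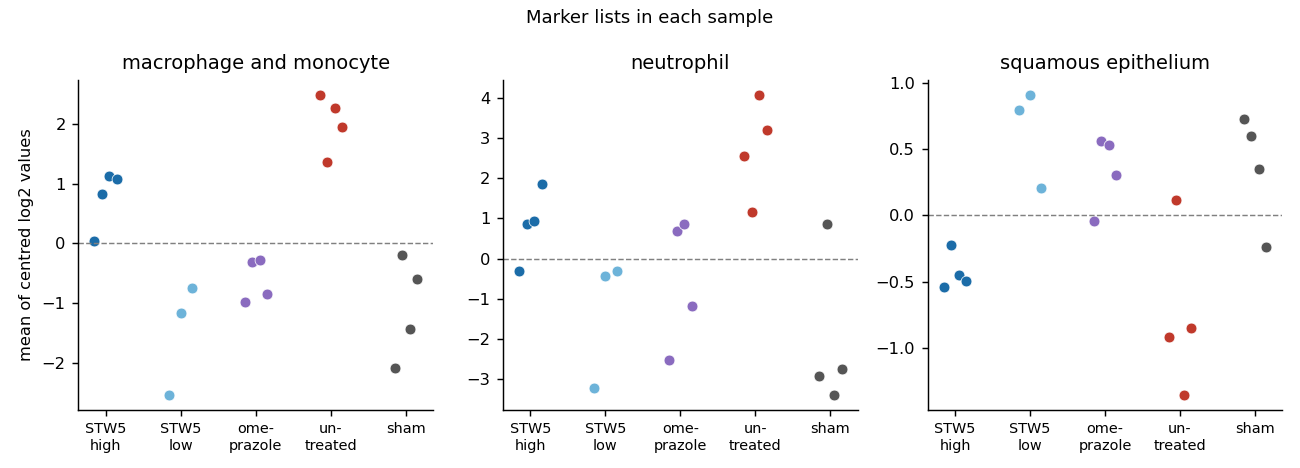
Mean of the centred log2 values of the macrophage and monocyte, neutrophil and squamous epithelium markers in each sample (points; 19 samples), for STW5 high, STW5 low, omeprazole, untreated and sham. Macrophage means are 1.36 to 2.49 in untreated and -2.08 to -0.20 in sham samples, with STW5 high between them at 0.04 to 1.12.

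The mean of the squamous markers was -0.54 to -0.23 in STW5 high, 0.21 to 0.91 in STW5 low, -0.04 to 0.56 in omeprazole, -1.35 to 0.12 in untreated and -0.24 to 0.73 in sham samples. That of the neutrophil markers was -0.32 to 1.86 in STW5 high, -3.22 to -0.32 in STW5 low, -2.51 to 0.86 in omeprazole, 1.17 to 4.07 in untreated and -3.39 to 0.87 in sham samples. Untreated replicate 2, the array with the lowest Hmox1 and Sod2 of its group, was also the lowest untreated array for the macrophage and neutrophil markers and the highest for the squamous ones. Sham replicate 1 had the lowest macrophage mean of its group (-2.08) but its highest Hmox1 (2.12). STW5 low replicate 4 had the highest macrophage mean of its group (-0.74) but its lowest Hmox1 (0.45). Macrophage means were higher in STW5 high (0.04 to 1.12) than in sham samples (-2.08 to -0.20), while mean Hmox1 was 0.73 against 1.09. Untreated replicate 3 had the lowest squamous mean of its group (-1.35) but its highest Gclc (0.68). The part of cell composition in the changes of Hmox1, Sod2, Txnrd1, Gclc and Nqo1 was not tested.

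Over the 19 samples, the genes whose pattern lay closest to that of Hmox1 were Ifngr2, Stk17b and Grb2, with a root mean square difference of 0.411, 0.414 and 0.451 SD between standardised levels, among 12759 genes compared. For Nqo1 they were Prkcz, Ide and Hsdl2 (0.296, 0.324 and 0.331 SD). For Nfe2l2 the closest were Dhx15, Tsn and Mogs, and they were farther off (0.552, 0.598 and 0.617 SD). These are descriptions, since the samples share groups and slides.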

How the data were processed

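Tissue RNA was labelled with Cy3 and hybridised to Agilent rat arrays, per the labels' protocols. Each deposited scanner file lists, per feature, an intensity after background subtraction and detrending, made with Agilent Feature Extraction 10.7.3.1 and not scaled between arrays, per the file headers. In the authors' deposited value table the values are a linear ratio of signal to the array's median (1 in every column); its 20 columns were set against the scanner files, of which 12 equalled their own and 8 the other STW5 dose with the same replicate number. It served as an alternative.

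Of 58717 non-control features, spots of a probe were averaged as log2 values without outlier-marked spots (30356 probes), and each array's 75th percentile was subtracted. A probe was kept with at least 50% of its spots well above background on at least 4 arrays (16096 probes), and the probe of highest mean stood for each gene (13597 genes), named through RefSeq accessions (18003 probes), symbols (2667) or synonyms (547), or by the array file alone (1932). Arrays of a group with a spread ratio under 1.5 over 4595 bright probes counted as 1 sample. All 5 groups were fitted in limma 3.58.1 (R 4.3.3) with lmFit and eBayes (14 residual and 2.78 prior degrees of freedom). Precision is limited by the number of arrays, with a median SE of 0.245 (0.264 with STW5 low). The fit was tested on simulated data.

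The replicate numbers come from the sample titles. Deviations of same-numbered samples correlated above 0.1 in every pair only between STW5 high and STW5 low (r = 0.116 to 0.238), where the block is therefore given. The 10 members, the gene and marker lists and the tests were chosen with earlier results of these data known. Other pathway genes were named where they had one of the 6 smallest p-values called in a comparison, and for genes so named other comparisons are given too. Keap1, Gss and Gsr were named outside this rule. Blood samples were not analysed here.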

Additional observations from a re-analysis of the deposited data

Results flagged for a closer look

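Within groups of 4 samples, 36 combinations of member and group were examined for a single array far from the others, and 4 had one. Chance alone marks about 1 in 20 such groups. Nfe2l2 was at 1.98 in omeprazole replicate 1, below the other 3 omeprazole arrays. Hmox1 was at 1.39 in untreated replicate 2, below the other 3 untreated arrays, and that array was also low in Sod2. Sod2 was at 2.59 in STW5 high replicate 4, above the other 3 of its group. Gpx2 was at 5.33 in sham replicate 4, below the other sham arrays, and that array carried the raised stomach and glandular epithelium markers.

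The effects of the STW5 groups against untreated tissue differed, by limma's test of the difference itself, for Nqo1 (STW5 high minus STW5 low, -0.999, adjusted p = 0.024) and Srxn1 (-0.88, adjusted p = 0.0086). Every STW5 high array was below every STW5 low array for both genes. The doses lay on different slides, and the value table gives the labels of the doses the other way round.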

How the results depend on the processing

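The 18 member changes called in the comparisons kept their sign under every alternative run except the dose labels of the deposited value table, which exchange the STW5 groups by construction, though some did not pass the test under every alternative. With those labels the table gave 3 members called in STW5 low minus untreated and 5 in STW5 high minus untreated (all genes 1185 and 5314), and all-gene counts of 0 in STW5 high minus sham, 1471 in STW5 low minus sham and 1018 in STW5 high minus omeprazole. For STW5 high minus STW5 low it gave 1.13 for Nqo1, 1.01 for Srxn1, 0.70 for Hmox1, 0.44 for Nfe2l2, -0.0265 for Sod2, 0.58 for Gclc, 0.86 for Gpx2 and 0.84 for Slc7a11. Against untreated tissue it gave 0.65 for Gpx2, 0.41 for Srxn1, 0.0947 for Slc7a11 and 0.0538 for Nfe2l2 in STW5 high, and -0.21 for Gpx2 and -0.60 for Srxn1 in STW5 low. The table with its columns named by their scanner files, tried after the data were seen, gave 0.0538 for Nfe2l2 and 0.0947 for Slc7a11 in STW5 low minus untreated and -0.0677 for Txnrd1 in STW5 high minus STW5 low.

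With only the 2 groups compared in the fit, which leaves fewer degrees of freedom, 2 members were called in untreated minus sham, 2 in STW5 low minus untreated, 1 in STW5 high minus untreated and 1 in STW5 high minus omeprazole (all genes 2263, 2797, 480 and 1173). The calls lost there were Hmox1 and Gclc in untreated minus sham, Hmox1, Txnrd1 and Gclc in STW5 low minus untreated, and Sod2 and Txnrd1 in STW5 high minus untreated (adjusted p = 0.0555 to 0.111). The all-gene count of 1 in STW5 low minus sham was 0 in that fit, with quantile normalization, without the filter on dim probes, with the table under its scanner files' names, with all 20 arrays and with normexp; it was 5 with the replicate block and 6 with signals near background set to a floor (added after the data were seen). Normexp gave all-gene counts of 116 in omeprazole minus sham, 5440 in STW5 high minus STW5 low and 67 in STW5 high minus omeprazole, the floor gave 60 in the last, and leaving out the filter gave 5734 in STW5 high minus STW5 low. The cause of these differences was not tested.

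Blocking on the replicate number in a fit of all 20 arrays gave 4986 genes in STW5 high minus STW5 low and 77 in STW5 high minus omeprazole. It changed no other member's call than that of Gclc between the doses, which all 20 arrays without the block also gave (adjusted p = 0.0241). In STW5 low minus untreated, both fits of 20 arrays gave 0.0315 for Nfe2l2 and 0.15 for Slc7a11, and normexp gave 0.0101 for Slc7a11. Normexp gave -0.16 for Txnrd1 in STW5 high minus STW5 low, and the second Slc7a11 probe gave 0.32 in omeprazole minus untreated.

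Leaving out 1 sample at a time gave 0 to 4 members in STW5 high minus untreated, the 0 without STW5 high replicate 1 (all genes 414 without that array to 2037 without untreated replicate 2), and 0 to 2 in STW5 high minus STW5 low, the 0 without the averaged STW5 low replicates 1 and 2 (all genes 925 to 4069). All-gene counts were 0 to 90 in STW5 low minus sham (the 90 without STW5 low replicate 4), 406 to 1467 in STW5 high minus sham, 169 to 329 in omeprazole minus sham and 5 to 22 in STW5 high minus omeprazole. Uncalled changes that crossed 0 in STW5 low minus untreated were Nfe2l2 (-0.19 to 0.11) and Slc7a11 (-0.34 to 0.53). In STW5 high minus untreated they were Nqo1 (-0.0525 to 0.20) and Gpx2 (-0.48 to 0.0163), and in omeprazole minus untreated Nfe2l2 (-0.21 to 0.0912), Gpx2 (-0.0741 to 0.47) and Slc7a11 (-0.56 to 0.067). In STW5 high minus STW5 low they were Sod2 (-0.0161 to 0.39) and Txnrd1 (-0.13 to 0.29).

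The scaling changed the split by direction among all called genes. In omeprazole minus untreated 56.1% of them were higher, against 42.1% with quantile normalization and 43.0% with the value table, and the median of all genes was 0.10, -0.03 and -0.01. In STW5 high minus untreated the share was 54.0%, against 44.0% with quantile normalization, 43.9% with the value table under its scanner files' names and 37.4% with normexp, and in STW5 low minus untreated 57.7% against 69.9% with normexp. In STW5 high minus sham it was 70.8%, against 45.75% with that table and 41.8% with normexp (medians -0.09, -0.21 and -0.18), and in STW5 high minus STW5 low 44.8%, against 30.25% and 18.7% (medians -0.15, -0.28 and -0.28). In omeprazole minus sham the median was 0.01, against -0.18 with the table and -0.10 with normexp. Signal over background limited Gclm, and Txnrd1 rests on dim signals.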
